A study of Saccharomyces cerevisiae with 8 samples.

Results

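Budding yeast (Saccharomyces cerevisiae) lacking the transcription factor gene YAP1 was compared with wild type (WT) for 6 genes grouped here as haem or oxygen regulated: HEM13, CYC1, HAP4, NDE1, YHB1 and CCP1. The genes were selected by name: a feature of the array counted if its annotation gave 1 of these symbols and no other. Each gene had 1 feature, so 6 of the 3127 genes measured were followed. They were picked with their ratios of yap1d over WT already known, so those ratios are given as a description, with no p-value, and nothing is read from how many of them pass a threshold. No sample differing in oxygen or haem was analysed here, so the grouping rests on background knowledge and dependence on haem or oxygen was not measured.

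The yap1d and WT cells were of BY4742 or of BY4741, laboratory strains of mating type alpha and a, and all of them grew in rich YPD medium to an optical density of 0.5 before 2 h with hydroxyurea at 200 mM. The drug blocks ribonucleotide reductase. The labels name no other allele. As background, both strains descend from the S288C laboratory strain, in which a transposon insertion weakens HAP1, the haem-responsive activator gene. For each strain, 1 slide carried yap1d in channel 1 and WT in channel 2 (slide 21 for BY4742, slide 19 for BY4741) and another the reverse (slides 22 and 20). A slide gave 2 columns of log ratios, fort and faible, taken here for 2 scans. Untreated cells were not analysed here, so each value compares the genotypes under the drug.

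Haem is built by a chain of enzymes that ends in the mitochondrion, and the step carried out by Hem13 consumes oxygen. In yeast, genes such as HEM13 are held down by the repressor Rox1 while oxygen and haem are plentiful, whereas genes of respiration such as CYC1 are switched on by Hap1, which binds haem, and by the CCAAT-binding HAP complex, in which Hap4 is the activating and regulated subunit. Yap1 is known as an activator of the response to peroxides and other oxidants.

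Values are given as log2 ratios of yap1d over WT after each column was centred on its median, so 1 is a 2-fold difference and a negative value is lower in yap1d. Base 2 was assumed. The direction of the deposited ratio is not given in the sources used here: it was set so that TRX2 and TRR1, known targets of Yap1, were lower in yap1d, and every sign below turns if that is wrong. A mean is given ± SD over the 2 strains (n = 2). The labels do not say that the 2 slides of a strain came from separate cultures, so spread between cultures of 1 strain may not have been measured, and the small number of arrays limits the precision. Before the ratios were turned, slides of the same channel layout correlated over all units at 0.850 and 0.862 and slides of opposite layout at 0.761 to 0.812, so a shared bias of channel or feature is large in every single slide. A bias of equal size on both slides of a strain cancels in their mean, but whether it was equal was not tested. Over genes, which are not independent replicates, the channel effect and the ratio of yap1d over WT, taken from the same slides, correlated at -0.274. A ratio gives no level, so the marker genes that these strains lack check the strain labels only in part. Unturned, MET17, deleted in BY4741, stood at percentiles 83.3 and 68.2 on the BY4742 slides against 4.92 and 4.29 on the BY4741 slides, and LYS2, deleted in BY4742, at 24.1 and 29.6 against 76.1 and 70.3. Of the mating-type genes, MFA1, STE6, STE3 and SAG1 stood apart between the strains, but MFA2, AGA2, MF(ALPHA)1 and MF(ALPHA)2 overlapped. MF(ALPHA)1 stood at 1.31 and 6.88 on the BY4742 slides against 1.18 and 13.0 on the BY4741 slides. YAP1 itself was not analysed here.

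HEM13, the gene of coproporphyrinogen oxidase in haem synthesis, read higher in yap1d in both strains, while CYC1, NDE1, HAP4 and YHB1 read lower in both and CCP1 had no common direction. The means were 1.02 ± 0.183 for HEM13, -1.03 ± 0.0539 for CYC1, -0.56 ± 0.116 for NDE1, -0.49 ± 0.156 for HAP4, -0.42 ± 0.0274 for YHB1 and -0.05 ± 0.241 for CCP1. HEM13 had the highest mean of all 3127 genes, CYC1 lay at percentile 0.192 and CCP1 at percentile 33.4. Of the 6 genes, 5 passed an adjusted p of 0.05 in limma fitted across all units, against 2.11% of all genes: 4 were lower (1.57% of all genes) and 1 higher (0.544%). The same number passed when the 4 slides were fitted with a channel term, against 1.54% of all genes (1.18% lower, 0.352% higher). These counts stand beside the share of all genes as a description, since this contrast chose the genes. Over all genes 49 were lower and 17 higher, but 36 lower and 34 higher when the columns were left uncentred. HEM13, CYC1 and NDE1 kept 1 sign on all 4 turned slides, which 4.86% of all genes did. This too is a description, since the genes were chosen from the same slides.

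**Figure D1:**
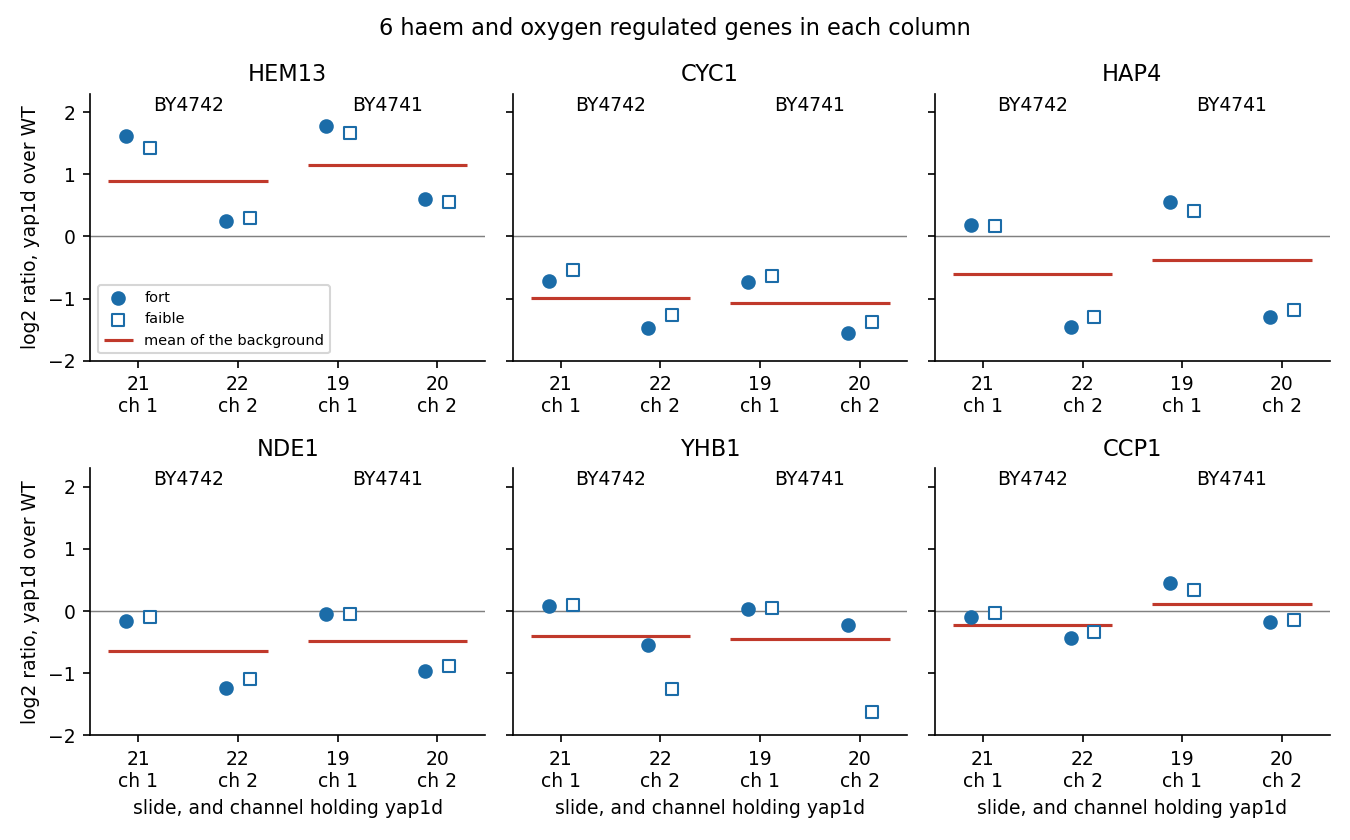
Log2 ratio of yap1d over WT for each of the 6 genes, by slide with the channel that held yap1d below it, for the fort columns (filled circles) and the faible columns (open squares). Red lines are the means of a strain. All HEM13 values lie above 0 and all CYC1 and NDE1 values below it, while HAP4 and YHB1 lie above 0 on slides 21 and 19 and below 0 on slides 22 and 20.

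HAP4, the regulator of the group, read 0.19 (fort) and 0.165 (faible) on slide 21 and -1.46 and -1.30 on slide 22 in BY4742. In BY4741 it read 0.55 and 0.41 on slide 19 and -1.29 and -1.19 on slide 20. The slides with yap1d in channel 1 were above 0 and those with yap1d in channel 2 far below it, in both strains. The strain means, over both layouts, were -0.60 in BY4742 and -0.38 in BY4741, and the mean corresponds to 1.41-fold lower in yap1d. The channel effect of HAP4, 0.82, was larger in size than its mean ratio of -0.49, so the sign of that mean rests on a channel bias of like size on both slides, which was not tested.

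HEM13 read 1.61 (fort) and 1.425 (faible) on slide 21 and 0.25 and 0.29 on slide 22 in BY4742. In BY4741 it read 1.77 and 1.67 on slide 19 and 0.61 and 0.56 on slide 20. All 8 columns were above 0, and the mean corresponds to 2.03-fold higher in yap1d. Within single columns HEM13 stood at percentile 99.9 or above among genes on slides 21 and 19, and between percentiles 71.5 and 94.5 on slides 22 and 20.

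CYC1 encodes iso-1-cytochrome c, the haem protein that carries electrons from the bc1 complex to cytochrome oxidase. It read -0.72 (fort) and -0.535 (faible) on slide 21 and -1.47 and -1.26 on slide 22 in BY4742, and -0.73 and -0.63 on slide 19 and -1.55 and -1.38 on slide 20 in BY4741. No column was above 0. The strain means of -0.996 in BY4742 and -1.07 in BY4741 lay close together, and the mean corresponds to 2.05-fold lower in yap1d.

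NDE1 encodes the external NADH dehydrogenase, which passes electrons from cytosolic NADH into the respiratory chain. It read -0.16 (fort) and -0.095 (faible) on slide 21 and -1.24 and -1.09 on slide 22 in BY4742, and -0.04 and -0.05 on slide 19 and -0.96 and -0.88 on slide 20 in BY4741. All 8 columns were below 0, but those of slides 21 and 19 were within 0.16 of it. The strain means were -0.65 in BY4742 and -0.48 in BY4741, which is 1.48-fold lower in the mean.

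YHB1 encodes flavohaemoglobin, a haem protein that detoxifies nitric oxide, and its size depended on the scan. It read 0.08 (fort) and 0.105 (faible) on slide 21 and -0.55 and -1.25 on slide 22 in BY4742, and 0.03 and 0.05 on slide 19 and -0.23 and -1.62 on slide 20 in BY4741. The scans were alike on the slides with yap1d in channel 1 and far apart on the others. On slide 20 the fort value differed from the faible one by -1.39 as a ratio of channel 1 over channel 2, a larger gap than in all genes but 1, AHP1, where the median gap was 0.09. On slide 22 the gap was -0.70, and 6 genes had a larger one.

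With the fort columns alone YHB1 stood at -0.17 ± 0.0955, and with the faible columns alone at -0.68 ± 0.150. Its deposited fort values were 0.12 on slide 21, 0.39 on slide 22, exactly 0 on slide 19 and 0.02 on slide 20. Intensities were not analysed here. In the mean over both layouts YHB1 read lower in yap1d in both strains with either scan. It was at -0.235 in BY4742 and -0.10 in BY4741 with fort and at -0.57 and -0.785 with faible. The channel effect of YHB1, 0.49, was larger in size than its mean ratio of -0.42, and with fort alone it was 0.22 against -0.17. The sign of the YHB1 mean thus rests on a channel bias of like size on both slides, which was not tested. Among the other 5 genes CYC1 moved most between the scans, with means of -1.12 (fort) and -0.95 (faible).

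**Figure D2:**
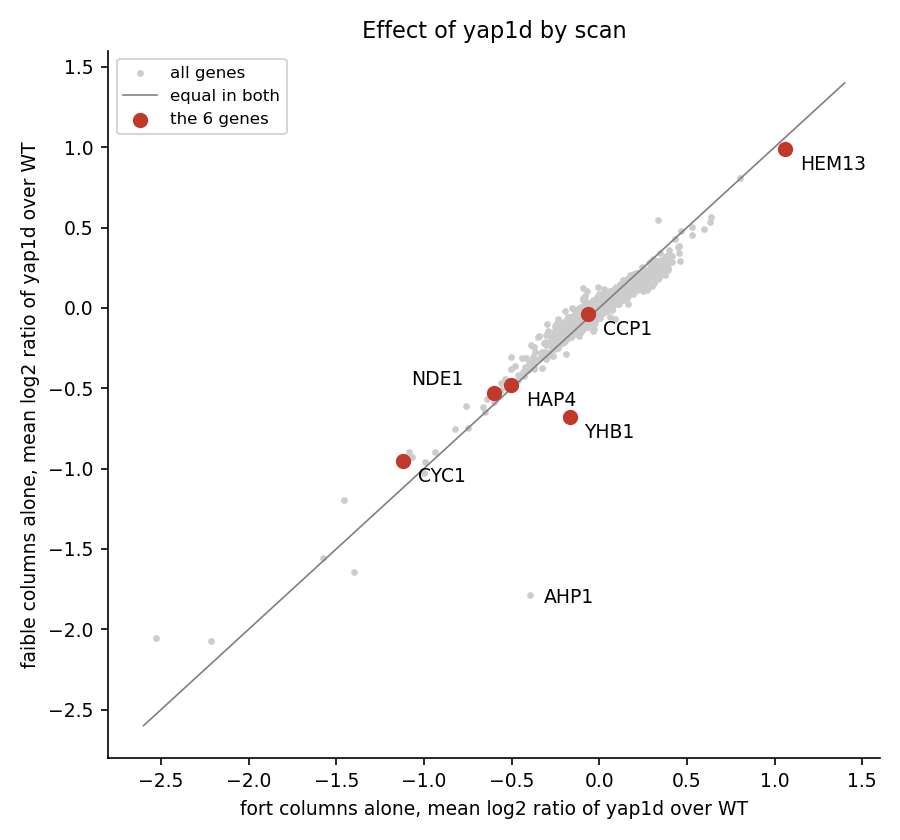
Mean log2 ratio of yap1d over WT from the fort columns alone (horizontal) and the faible columns alone (vertical) for all 3127 genes in grey and the 6 genes in red. YHB1, at -0.17 and -0.68, lies off the line of equal values with AHP1, at -0.40 and -1.79, and the other 5 genes lie near it.

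CCP1 encodes cytochrome c peroxidase, a haem enzyme of the mitochondrial intermembrane space that reduces hydrogen peroxide with electrons from cytochrome c. It read -0.10 (fort) and -0.025 (faible) on slide 21 and -0.43 and -0.33 on slide 22 in BY4742, and 0.45 and 0.34 on slide 19 and -0.17 and -0.14 on slide 20 in BY4741. Slide 19 alone was above 0. The strain means were -0.22 in BY4742 and 0.12 in BY4741.

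Ordered by mean, the genes ran HEM13, CCP1, YHB1, HAP4, NDE1, CYC1. The means of YHB1, HAP4 and NDE1 lay within the spread of HAP4 over the strains. CYC1 lay below NDE1 and HEM13 above CCP1 by more than the SD of either neighbour.

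Whether the ratio differed between the strains was tested with limma on the 4 slides with a channel term, a contrast that did not choose the genes. None of the 6 genes passed, and none of all 3127 genes did (0%), with 395 genes at an unadjusted p under 0.05. For BY4742 minus BY4741 the difference was -0.34 ± 0.136 for CCP1 (SE, limma adjusted p = 0.399), -0.26 ± 0.131 for HEM13 (0.483), -0.22 ± 0.133 for HAP4 (0.547), -0.16 ± 0.133 for NDE1 (0.626), 0.08 ± 0.130 for CYC1 (0.822) and 0.04 ± 0.130 for YHB1 (0.914). CCP1 was the only one of the 6 with an unadjusted p under 0.05 (limma, 0.0349). With print block medians removed the difference of CCP1 was -0.07. These p-values miss the threshold and do not show that the strains were alike.

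**Figure D3:**
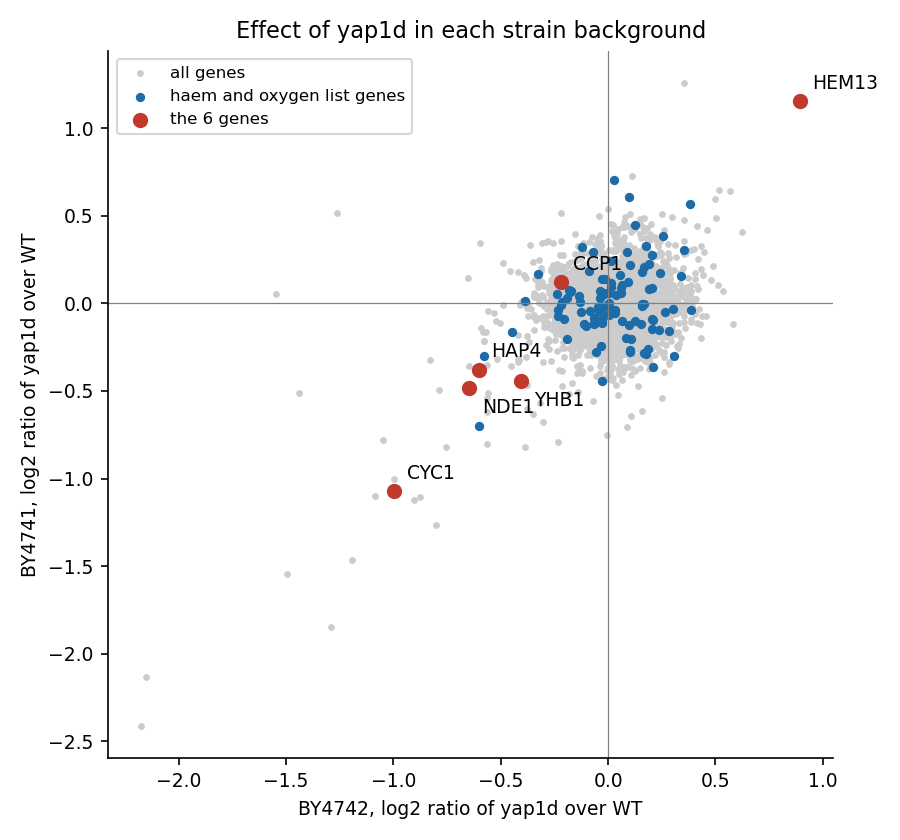
Log2 ratio of yap1d over WT in BY4742 (horizontal) and BY4741 (vertical) for all 3127 genes in grey, the other 103 genes of the haem and oxygen lists in blue and the 6 genes in red. HEM13 lies in the upper right corner, CYC1, NDE1, HAP4 and YHB1 at the lower left, and CCP1 beside the origin.

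The channel effect, the mean ratio of channel 1 over channel 2 over both layouts, was the second contrast that did not choose the genes. It passed in limma for 5 of the 6 genes, against 62.8% of all genes: HAP4 (0.82 ± 0.0836 SE, limma adjusted p = 1.21e-05), HEM13 (0.60 ± 0.0856, 0.00011), YHB1 (0.49 ± 0.0757, 0.000187), NDE1 (0.48 ± 0.0805, 0.00034) and CYC1 (0.38 ± 0.0764, 0.00112). With fort columns alone YHB1 did not pass (0.22, limma adjusted p = 0.0627). CCP1 did not pass (0.22 ± 0.0934 SE, limma adjusted p = 0.0595), but did without slide 20 (0.27, limma adjusted p = 0.0287) or slide 21 (0.33, 0.0354). All 6 effects were above 0. Among all genes, the channel effect passed above 0 in 1154 and below 0 in 809, so most passing effects shared that sign. Over all genes the channel effect had an SD of 0.396, against 0.154 for the ratio of yap1d over WT. Removing print block medians left CYC1 a channel effect of 0.01 and gave CCP1 one of 0.50 (limma adjusted p = 0.000225), while CYC1 itself stayed at -0.98 as a ratio of yap1d over WT.

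The 6 features lay in 6 different print blocks of 144 features each. HEM13 was the highest feature of its block, CYC1 and HAP4 the lowest of theirs, and NDE1 and YHB1 the third lowest. CCP1 ranked 21.5 from the lowest. The genes were chosen from this same ratio, so their ranks are a description. The median ratio of these 6 blocks ran from -0.04 to 0.04. The 8 spots touching HEM13 ran from -0.20 to 0.08 and the 5 touching CYC1 from -0.29 to 0.02. The 8 spots around NDE1 ran from -0.85 to 0.07, with a median of -0.05. These are means over both layouts, in which a channel bias of equal size cancels. Faults of a spot or of a region of the slide were not tested.

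In the gene order of the R64 assembly, none of the 11 measured genes beside the 6 passed (limma on the 2 strains). The genes on either side of HEM13, NRG1 and RPC11, were at -0.08 and -0.13. CYC1 lies beside ANB1, a gene known to be repressed by Rox1, which was at 0.21 ± 0.0486, and UTR1, at 0.07. KTI12 (-0.06) and SLD2 (-0.08) flank HAP4, PHO81 (-0.02) and MIC26 (-0.07) flank YHB1, and PAM17 (-0.12) and GPT2 (-0.02) flank CCP1. Of the neighbours of NDE1 only TIF34 was measured under its own name (-0.11). Of the paralogues, CYC7, encoding iso-2-cytochrome c, was at -0.14 ± 0.151 and NDE2, the second external NADH dehydrogenase gene, at -0.04 ± 0.0186. Neither passed, and binding of a paralogue's RNA to a spot was not tested.

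Likeness to other genes was measured as the root mean square difference across the 4 slides after turning, so it includes the channel effect. The genes nearest to CYC1 were the thioredoxin reductase gene TRR1 (distance 0.126), YGP1 (0.185) and the peroxiredoxin gene AHP1 (0.201), against a median distance of 1.11 over all genes. TRR1 was used to set the direction, and AHP1 changed with the scan. No gene lay close to HEM13: the nearest were GDH1 (0.434), YDR061W (0.527) and GPD2 (0.553), against a median of 1.20. HAP4 had PRY1 (0.108), CYS4 (0.109) and ERG3 (0.111) beside it.

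NDE1 was nearest to YHB1 (0.177), followed by DBP2 (0.180) and the copper chaperone gene CCS1 (0.185). YHB1 was nearest to the copper transporter gene CTR1 (0.106), PSK2 (0.133) and TAT1 (0.142). CCP1, which lies among most other genes, had KIN4 (0.0318), FMT1 (0.0465) and MSB4 (0.0477) beside it.

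Other genes of the same pathways were counted in 10 lists with 103 measured genes besides the 6. Of these, 4 passed limma on the 2 strains, 2 higher and 2 lower, beside 2.11% of all genes. At that share a short list may hold no gene that passes, so a list below with none is not shown to be unchanged. The median of the 103 was 0.00, against -0.01 over all genes. The genes that passed were the mitochondrial superoxide dismutase gene SOD2 (-0.65 ± 0.0698, limma adjusted p = 3.93e-07), the sterol desaturase gene ERG3 (-0.44 ± 0.195, 0.00434), the glycerol-3-phosphate dehydrogenase gene GPD2 (0.47 ± 0.130, 0.00131) and the pyruvate carboxylase gene PYC2 (0.37 ± 0.476, 0.0424). PYC2 was at 0.03 in BY4742 and 0.70 in BY4741 and did not pass the fit of 4 slides (limma adjusted p = 0.390) or fort columns alone (0.0641). Its mean was 0.165 with print block medians removed (limma adjusted p = 0.920), 0.13 without slide 20 (0.841) and 0.60 without slide 22 (1.9e-05). With columns scaled to equal spread SOD2 alone passed, and without slide 19 or slide 21 none of the 4 did. ERG3 did not pass without slide 22 either (-0.36, limma adjusted p = 0.0558).

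**Figure D4:**
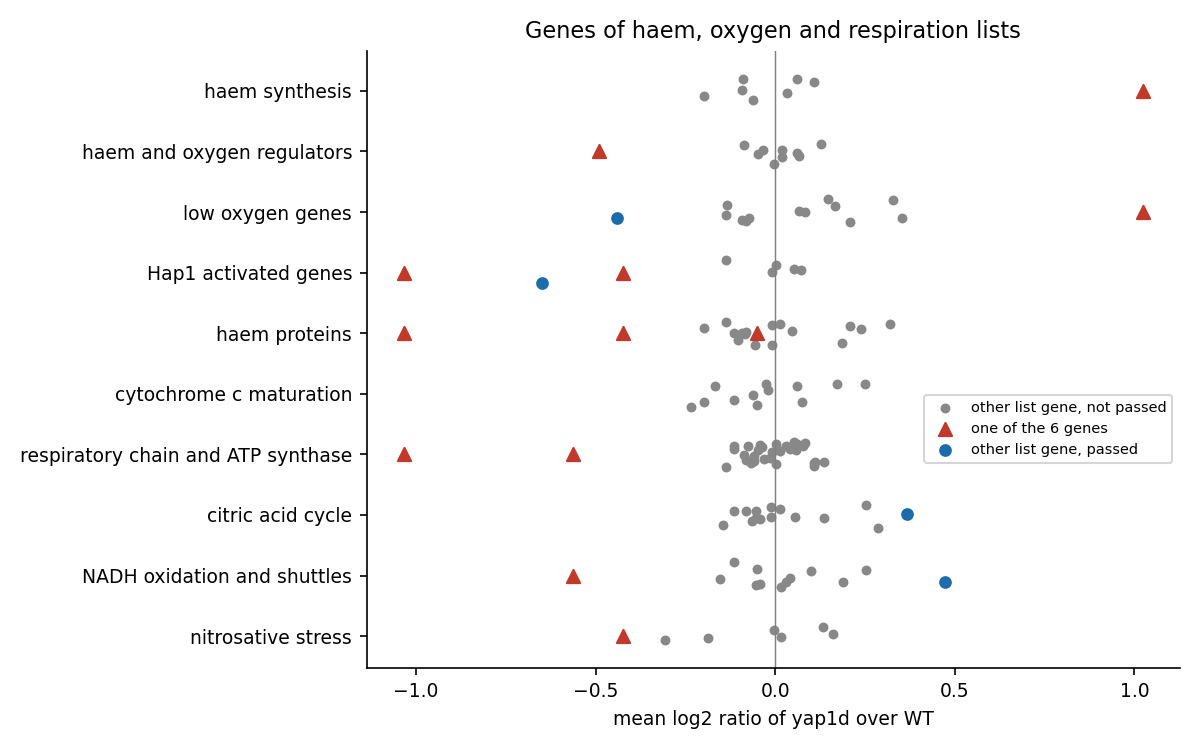
Mean log2 ratio of yap1d over WT for the genes of 10 lists, with 1 row per list: grey points did not pass limma on the 2 strains, blue points passed and red triangles are the 6 genes, which were not counted. Apart from the triangles and the 4 blue points of SOD2, ERG3, GPD2 and PYC2, the points lie between -0.31 and 0.35.

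In haem synthesis none of 7 measured genes besides HEM13 passed, beside 2.11% of all genes. COX10, which makes haem O on the way to haem A, was at -0.20 ± 0.00619, MET8, of sirohaem synthesis, at 0.11 ± 0.0734, and HEM2 at -0.09 ± 0.204. HEM15, whose product ferrochelatase inserts iron in the last step to haem, was at -0.09 ± 0.0327. The list median was -0.06.

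Among regulators of haem and oxygen none of 9 measured genes besides HAP4 passed, and their median was 0.02. HAP2 (-0.05 ± 0.125), HAP3 (0.02 ± 0.0575) and HAP5 (-0.0044 ± 0.0451), the other subunits of the HAP complex, lay near 0. IXR1 (0.13 ± 0.160), MOT3 (-0.09 ± 0.0557) and SUT1 (0.07 ± 0.0734) were farthest from it with HAP4 left out. HAP1 and ROX1 were not analysed here.

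Of 13 measured genes known to be induced at low oxygen, besides HEM13, 12 did not pass and ERG3 was lower. The squalene epoxidase gene ERG1 was at 0.35 ± 0.360 (limma adjusted p = 0.0590), the cell wall mannoprotein genes TIR2 and TIR4 were at 0.33 ± 0.0362 and 0.17 ± 0.0150, and DAN1 was at 0.08 ± 0.0274. The fatty acid desaturase gene OLE1 was at -0.09 ± 0.0362. The list median was 0.07, with 6 of 13 genes below 0.

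Of 6 measured genes known to be activated by Hap1, besides CYC1 and YHB1, SOD2 alone passed. CYT1, encoding cytochrome c1, was at -0.01 ± 0.0292, COR1 at 0.05 ± 0.0575 and the ADP/ATP carrier gene PET9 at 0.07 ± 0.123. None of 16 measured genes of haem proteins passed, the farthest being the FRE5 (0.32 ± 0.0928), FRE4 (0.24 ± 0.0504) and SCS7 (0.21 ± 0.0221) genes. In the list of cytochrome maturation and assembly none of 12 passed, with SCO2, of copper delivery to cytochrome oxidase, at 0.25 ± 0.130, CBP3 at -0.24 ± 0.296 and COX10 as above.

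Of 12 measured genes of NADH oxidation besides NDE1, GPD2 was higher and 11 did not pass. Beside the external enzyme NDE1, the internal NADH dehydrogenase gene NDI1 was at -0.11 ± 0.0186 the malate dehydrogenase gene MDH1 at 0.25 ± 0.105 and the mitochondrial alcohol dehydrogenase gene ADH3 at 0.19 ± 0.146. In the citric acid cycle list PYC2 was higher and 14 of 15 did not pass, with CIT2 at 0.29 ± 0.227. None of 6 measured nitrosative stress genes besides YHB1 passed: GSH1, of glutathione synthesis, was at -0.31 ± 0.202, GSH2 at -0.19 ± 0.285 and the sulfite pump gene SSU1 at 0.16 ± 0.0822.

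None of 29 measured respiratory chain and ATP synthase genes besides CYC1 and NDE1 passed, beside 2.11% of all genes. The list median was -0.01. CYC7, SDH2 (0.14 ± 0.0787) and SDH4 (-0.12 ± 0.00619) had the largest means. By strain, the list median was 0.10 in BY4742 against -0.10 in BY4741. Of its 29 genes, 24 (82.8%) were higher in BY4742, against 50.8% of all genes, a share given without a test. Other lists leaned as far: 5 of 6 Hap1 activated genes (83.3%) and 1 of 9 regulators (11.1%) were higher in BY4742. With print block medians removed these 2 shares were 33.3% and 44.4%. Below 0 lay 7 of the 29 respiratory genes in BY4742 and 22 in BY4741, against 1565 and 1623 of all 3127 genes. The list counts were 10 and 22 with print block medians removed and 3 and 19 with no centring. Of the 29 genes, 10 had an unadjusted p under 0.05 in the strain test (limma), beside 395 of all 3127 genes, but none passed after adjustment.

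The cytochrome oxidase gene COX7 was at 0.21 in BY4742 and -0.36 in BY4741, COX12 at 0.17 and -0.28, and the bc1 gene QCR9 at 0.31 and -0.30. SDH1 went the other way, at -0.33 in BY4742 and 0.165 in BY4741. These 4 genes were named after their values were seen. NDE1 and HAP4 read lower in BY4742 than in BY4741, and CYC1 read 0.08 higher. With print block medians removed, 19 of 29 genes (65.5%) were higher in BY4742, against 52.4% of all genes, and the list medians were 0.12 in BY4742 and -0.06 in BY4741.

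**Figure D5:**
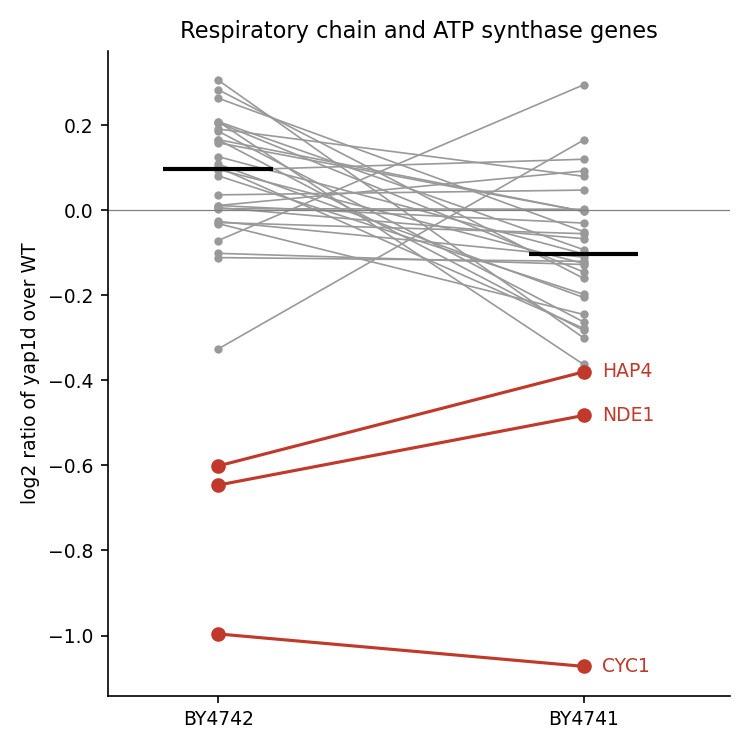
Log2 ratio of yap1d over WT in BY4742 (left) and BY4741 (right) for 29 respiratory chain and ATP synthase genes in grey, with black bars at their medians of 0.10 and -0.10, and for CYC1, NDE1 and HAP4 in red. The red lines lie below the grey ones in both strains except that the lowest grey point in BY4741 is close to HAP4.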

How the data were processed

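The authors deposited log ratios, assumed here to be log2 ratios between the channels, for 6912 features in 8 columns. Per the labels, RNA was labelled indirectly and hybridised on yeast slides. Base 2 is assumed. Background correction, normalization and the direction of the ratio are not given in the sources used here. Column medians of -0.28 to 0.04 show only that the columns were not centred on their medians. Features took gene names from the array's annotation, updated to the R64 reference table: 3344 had 1 symbol (3343 matched), 387 several and 3181 none that could be used. Averaging features with the same gene gave 6695 units, of which 3127 were genes. The genes beside each of the 6 were taken from the gene order of that table; no coordinates are printed, and sequences were not used here.

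Each column was centred on its median, scans were averaged and ratios were turned by the labelled channel. The main test was an intercept over the 2 strain means with lmFit and eBayes (limma 3.58.1, R 4.3.3), two-sided, Benjamini-Hochberg adjusted over all units. The estimated prior was infinitely strong, with a common SD of 0.153, so the p-values assume the same spread in every gene. The 4 slides were used to fit the strain difference and the channel effect. All fits were tested on simulated data, where the strain fit missed most differences of the smallest size set and made some calls with nothing changed, and the share of false calls in the main and strain fits was above the adjusted p threshold.

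The 6 genes and the lists were chosen with earlier results of these data known. Named are the 6 genes, of each list the genes that passed or else the 3 with the largest mean in size, and the 3 nearest genes to each of the 6. Further genes are named for their role or place, after their values were seen. Alternatives varied scan, centring, scaling, print blocks, exact zeros, prior, replicate unit, orientation and slides. Figures were drawn with matplotlib 3.10.9.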

Additional observations from a re-analysis of the deposited data

How the results depend on the processing

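HEM13 stayed above 0 and CYC1, HAP4, NDE1 and YHB1 below 0 under every alternative run, except that with columns not turned, which replaces the ratio by the channel effect, all 6 were above 0: HEM13 0.60, CYC1 0.38, HAP4 0.82, NDE1 0.48, YHB1 0.49 and CCP1 0.22. Among all genes, 1247 passed above 0 and 880 below 0 with columns not turned. With fort columns alone CYC1 was -1.12 and YHB1 -0.17, and with faible columns alone they were -0.95 and -0.68. With no centring they were -0.98 and -0.37, and CCP1 0.0050. Removing print block medians put CYC1 at -0.98, and quantile normalization put HEM13 at 1.21 and YHB1 at -0.38. Read as natural logarithms, the values would be 1.48 for HEM13, -1.49 for CYC1, -0.71 for HAP4, -0.81 for NDE1 and -0.61 for YHB1 in log2. Leaving out 1 slide gave HEM13 0.94 to 1.10, CYC1 -1.06 to -1.01, HAP4 -0.57 to -0.415, NDE1 -0.63 to -0.50, YHB1 -0.44 to -0.41 and CCP1 -0.165 to 0.064, with CCP1 at 0.064 without slide 21 and 0.0056 without slide 22.

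Over all genes, the ratio of yap1d over WT passed in 66 as reported, 18 with columns scaled to equal spread or after quantile normalization, 2127 with columns not turned and 3 to 95 without 1 slide (3 without slide 19 or 21, 95 without 20, 92 without 22). Among the 103 list genes the count of 4 became 7 with no centring, 1 with scaling or quantile normalization, 72 with columns not turned and 0 to 5 without 1 slide. The strain test passed 73 genes with faible columns alone and 15 with no centring, in fits with 1 residual degree of freedom, and leaving out a slide left it no residual degree of freedom, so that was not run. The strain difference of YHB1 was -0.135 with fort columns alone and that of CYC1 -0.016 with scaling. Causes of these shifts were not tested. Signal over background, which limits single features, was not analysed here. Each ratio already pairs yap1d with WT on a slide, and no further block was fitted.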
